A study of Mus musculus with 2 samples.

Results

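The genes that carry the cell through the G1 phase of its cycle were examined in mouse E14 embryonic stem cells (ESCs) and in E14-Sox2TA/WT cells. The set held 10 of the 24532 genes in the deposited table, taken by their symbols: the cyclins Ccnd1, Ccnd2, Ccnd3, Ccne1 and Ccne2, the kinases Cdk4 and Cdk6, and the kinase inhibitors Cdkn1b, Cdkn2a and Cdkn2b. E14 is an established mouse ESC line with wild-type Sox2, kept in medium with serum and LIF (leukemia inhibitory factor). E14-Sox2TA/WT cells come from E14 cells cloned after editing, with the T258A change, threonine 258 to alanine, in 1 allele of Sox2, made with CRISPR/Cas9, and the other allele is wild type. The change removes a site at which Sox2, a transcription factor of pluripotent cells, carries the sugar O-GlcNAc, and the RNA of both lines was compared to find the genes that respond. How many clones stand behind the library is not given in the sources used here. Clones were picked and kept with inhibitors of Mek (PD0325901) and Gsk3 (CHIR99021), which were withdrawn before use, so genotype, clone and culture history cannot be told apart. Each genotype had 1 library of polyadenylated RNA, and no difference below has a replicate check or a p-value.

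In most cells, growth signals raise the D-type cyclins, which bind Cdk4 or Cdk6 and start to phosphorylate the retinoblastoma protein and its relatives. The E2F transcription factors that these pocket proteins hold back are then freed, E-type cyclins accumulate with Cdk2 as their partner, and the genes of DNA replication are switched on. Inhibitors of the Ink4 kind (Cdkn2a, Cdkn2b) block Cdk4 and Cdk6, while those of the Cip/Kip kind (Cdkn1b) act mainly on cyclin E with Cdk2. Mouse ESCs are known for a short G1 phase, with high cyclin E activity through most of the cycle, and for lengthening G1 when they differentiate.

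The E14 library held 60263536 counted reads and the E14-Sox2TA/WT library 44609228. Sox2 itself had a TPM (a transcript level scaled by transcript length and by the size of the library) of 372.5 in E14 and 274.2 in E14-Sox2TA/WT cells. These are levels of RNA, and the paper found similar Sox2 protein in both lines by Western blot. All 8 ESC markers were above a TPM of 10 in both libraries, with a summed TPM of 12109 and 9073, and 3 of them were higher and 5 lower, from Nanog (log2 ratio -1.07) to Utf1 (0.24). Of 8 fibroblast markers, 1 passed a TPM of 10 (Thy1), Dcn and Lum had no read in either library, Col3a1 went from a TPM of 0.0799 to 1.28 and Thy1 from 40.1 to 11.4. The fibroblast sum went from 51.0 to 21.0. The sum of 6 primitive endoderm markers went from 126.5 to 79.4, that of 3 mesoderm markers from 4.46 to 24.5 and that of 3 neural markers from 10.9 to 49.2. The part of these cell types in the values below was not tested, and in bulk RNA a change in the number of cells of a type cannot be told apart from a change in RNA per cell.

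Cdk6 and Ccne2 were the genes of the set that differed by more than 2-fold, both higher in E14-Sox2TA/WT cells. The others differed by less, with Cdk4, Ccne1, Ccnd1 and Ccnd2 at ratios above 1 and Ccnd3, Cdkn1b, Cdkn2a and Cdkn2b at ratios below 1. Genes whose TPM reached 10 in either library were kept, and a TPM ratio of more than 2-fold was counted as a difference, the rule of the study. Of the 10 genes, 8 passed the filter, and Ccnd2 and Cdkn2b did not. None was more than 2-fold lower. Among all 9094 genes past the filter, 4.17% (379) were more than 2-fold higher and 4.07% (370) more than 2-fold lower, 8.24% in all. The paper reports more genes higher and fewer lower than this, and the source of the mismatch was not traced. Cdk6 and Ccne2 were under a TPM of 10 in E14 and passed only through the library in which they were higher, so their number, and the place of their ratios among the genes past the filter, carry no weight beyond description. At 1.5-fold, Ccnd1 and Ccne1 joined the higher genes and Ccnd3 and Cdkn2a were lower, against 14.2% higher and 10.5% lower among all genes. The counting interval of the ratio, described below, lay wholly above 0 on the log2 scale in 5 of the 8 genes past the filter and wholly below it in 2, against 50.2% and 35.3% of all genes, so an interval clear of 0 is common here and marks counting precision.

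**Figure D1:**
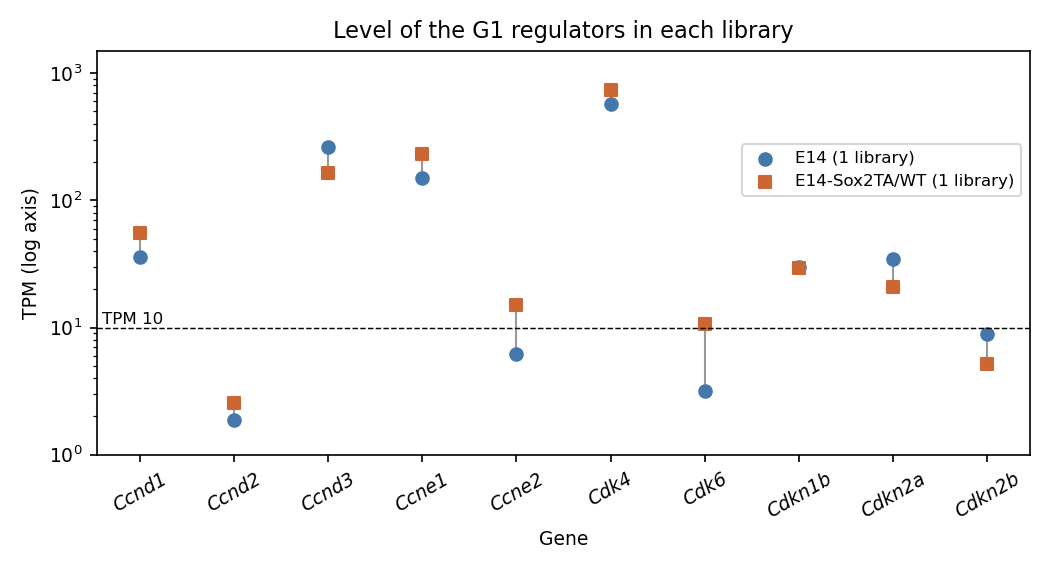
TPM of the 10 genes in the E14 library (circles) and the E14-Sox2TA/WT library (squares) on a log axis, with a grey line joining the values of a gene and a dashed line at the filter of TPM 10. Levels spanned from 1.86 (Ccnd2) to 569.8 (Cdk4) in E14, and the squares of Cdk6 and Ccne2 lie above the dashed line while their circles lie below it.

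Cdk4 stood highest in each library and Ccnd2 lowest. Ccnd3 came next to Cdk4 in E14, followed by Ccne1, and they exchanged places in E14-Sox2TA/WT cells. Ccnd1, Cdkn1b and Cdkn2a formed a middle group between a TPM of 20.9 and 55.5, and Cdkn2a, above Cdkn1b in E14, was below it in E14-Sox2TA/WT cells. Of the low genes, the order in E14 was Cdkn2b, Ccne2 and Cdk6, whereas in E14-Sox2TA/WT cells Ccne2 and Cdk6 both stood above Cdkn2b. By exact Poisson intervals of the reads, the only neighbours in either order that overlapped were Ccnd1 (34.9 to 37.0) and Cdkn2a (32.5 to 36.8) in E14.

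The D-type cyclins had ratios on opposite sides of 1, none past 2-fold. Ccnd3 (chr17:47505051-47599689, as all gene positions here in RefSeq on GRCm38.p6), which encodes cyclin D3, stood at a TPM of 262 with 16388 reads in E14 and at 163 with 6830 reads in E14-Sox2TA/WT cells. It was 1.61-fold lower, with a log2 ratio of TPM of -0.68 (95% counting interval -0.72 to -0.64). These intervals are exact Clopper-Pearson intervals of the read counts and cover counting error only. Ccnd1 (chr7:144929931-144939831), which encodes cyclin D1 and is induced by many growth signals, had a TPM of 35.9 (4296 reads) in E14 and 55.5 (4450 reads) in E14-Sox2TA/WT cells, a log2 ratio of 0.63 (0.57 to 0.69). Ccnd2 (chr6:127125162-127152188), the gene of cyclin D2, was scarce, with a TPM of 1.86 (339 reads) and 2.56 (313 reads), and its log2 ratio of 0.46 had a wide interval (0.23 to 0.69). The ratio of Ccnd2 fell to 0.16, outside that interval, when its dependence on GC content and on transcript length was taken out.

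Cyclin D3 therefore remained the main D-type transcript in both libraries, but by a smaller margin. Its share of the summed TPM of the 3 genes was 87.4% in E14 and 73.8% in E14-Sox2TA/WT cells, while the share of Ccnd1 was 12.0% and 25.1%. Ccnd2 made up 0.621% and 1.16%. The sum over the 3 genes was 300.1 in E14 and 221.5 in E14-Sox2TA/WT cells, a log2 ratio of -0.44 (-0.47 to -0.40, by the delta method).

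Both E-type cyclins were higher. Ccne1 (chr7:38097984-38107490), which encodes cyclin E1, stood at a TPM of 150.3 with 9260 reads in E14 and at 229.5 with 9475 reads in E14-Sox2TA/WT cells, a log2 ratio of 0.61 (0.57 to 0.65). Ccne2 (chr4:11190433-11204779), the gene of cyclin E2, had a TPM of 6.20 (600 reads) and 15.1 (966 reads), which is 2.43-fold higher, with a log2 ratio of 1.28 (1.13 to 1.43). Cyclin E1 supplied nearly all of the E-type transcript in either library, 96.0% and 93.8% of the summed TPM, and the sum of both genes went from 156.5 to 244.6. In E14 the D-type cyclins together stood 1.92 times as high as the E-type cyclins in summed TPM, and in E14-Sox2TA/WT cells 0.905 times as high.

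The kinases that pair with the D-type cyclins were both higher, the scarce one more so. Cdk4 (chr10:127063535-127067288) stood at a TPM of 569.8 with 24158 reads in E14 and at 741 with 21059 reads in E14-Sox2TA/WT cells, a log2 ratio of 0.38 (0.35 to 0.41), which lay above that of 74.3% of the genes past the filter. Cdk6 (chr5:3341004-3531008) had a TPM of 3.17 (1151 reads) and 10.6 (2570 reads). It was 3.33-fold higher, with a log2 ratio of 1.74 (1.64 to 1.84), the largest ratio of the 10 genes. Cdk4 was still by far the more abundant kinase, with 179.7 transcripts per Cdk6 transcript in E14 and 70.1 in E14-Sox2TA/WT cells, as the ratio of the TPM values.

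The DNA before a transcript start of each kinase gene is shown because it holds the E-box, the site that Myc and Mycn can bind, in different numbers, and the transcripts of both factors are described below. Sequences are from RefSeq for the GRCm38.p6 build, 5′ to 3′, with the letters CACGTG in capitals. This motif reads the same on both strands. The Cdk4 stretch is the 200 bases before the start at chr10:127063335-127063534 on the plus strand, and the Cdk6 stretch lies 250 to 151 bases before a start at chr5:3343643-3343742 on the plus strand. That Cdk6 start, at base 3343893, lies inside the gene span given above, which opens at base 3341004, so the stretch is not the DNA before the outermost Cdk6 start.
Cdk4: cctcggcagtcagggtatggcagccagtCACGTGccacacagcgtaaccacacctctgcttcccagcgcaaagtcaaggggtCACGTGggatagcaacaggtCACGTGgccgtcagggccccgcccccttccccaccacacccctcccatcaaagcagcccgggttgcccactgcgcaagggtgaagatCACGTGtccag
Cdk6: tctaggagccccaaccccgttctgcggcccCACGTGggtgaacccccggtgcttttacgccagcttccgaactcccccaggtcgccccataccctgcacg

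Windows of 300 bases, from 250 bases before to 50 bases after a start, were given for 7 of the 10 genes (9 windows, as Ccnd3 and Cdkn2a have 2 starts each). Ccnd1, Ccnd2 and Ccne2 were not matched. The Cdk4 window held 4 E-boxes, whose first bases lie at -172, -118, -98 and -11 from the start, and the Cdk6 window held 1, at -220. No E-box was found in the other 7 windows. Of 32851 windows of this length, 7.15% held the motif and 0.0883% held it 3 times or more. The letters ACAATG or ACAAAG, the core recognised by Sox proteins, were found on either strand in 1 window only, the first of Ccnd3 (2 matches), against 28.6% of all windows. A match of letters describes the sequence and does not show that a factor binds there.

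Of the inhibitors, those of the Ink4 locus on chromosome 4 were lower and Cdkn1b was nearly level. Cdkn1b (chr6:134920401-134925525), which encodes p27, stood at a TPM of 30.2 with 2286 reads in E14 and at 29.2 with 1482 reads in E14-Sox2TA/WT cells, and the interval of its log2 ratio (-0.05, -0.14 to 0.05) spanned 0. With FPKM, the deposited level per kilobase that is scaled to all fragments, the ratio of Cdkn1b was -0.19. The contrast with Cdkn2a was lost when the dependence of the ratio on GC content and on length was taken out, which put Cdkn1b at -0.30 and Cdkn2a at -0.34. Cdkn2a (chr4:89274473-89294619), which encodes p16Ink4a and, from another first exon and reading frame, p19Arf, had a TPM of 34.6 (1004 reads) and 20.9 (409 reads). It was 1.66-fold lower, with a log2 ratio of -0.73 (-0.90 to -0.56). Cdkn2b (chr4:89306289-89311032), which encodes p15Ink4b and lies 11.7 kb from Cdkn2a, had a TPM of 8.94 (393 reads) and 5.14 (151 reads), a log2 ratio of -0.80 (-1.08 to -0.53). At this depth Cdkn2b was not resolved from a difference of 2-fold.

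The table gives 1 row for Cdkn2a, which sums 2 RefSeq transcripts, so p16Ink4a and p19Arf cannot be told apart in these values. Their starts lie at 89294619 and 89282192 on the minus strand of chromosome 4 (GRCm38.p6). The stretch before the first of these, the start of the p19Arf transcript, is shown because it holds letters of an E2F site and genes of E2F factors differed between the libraries. It covers the 150 bases before the start at chr4:89294620-89294769, with TTTCCCGC in capitals.
Cdkn2a: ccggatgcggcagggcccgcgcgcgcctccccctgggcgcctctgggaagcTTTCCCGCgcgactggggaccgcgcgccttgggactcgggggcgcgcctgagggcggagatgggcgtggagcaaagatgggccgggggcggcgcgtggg

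The letters TTTGGCGC or TTTCCCGC, on either strand, occurred in none of the other 8 windows of these genes and in 1.56% of all windows.

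**Figure D2:**
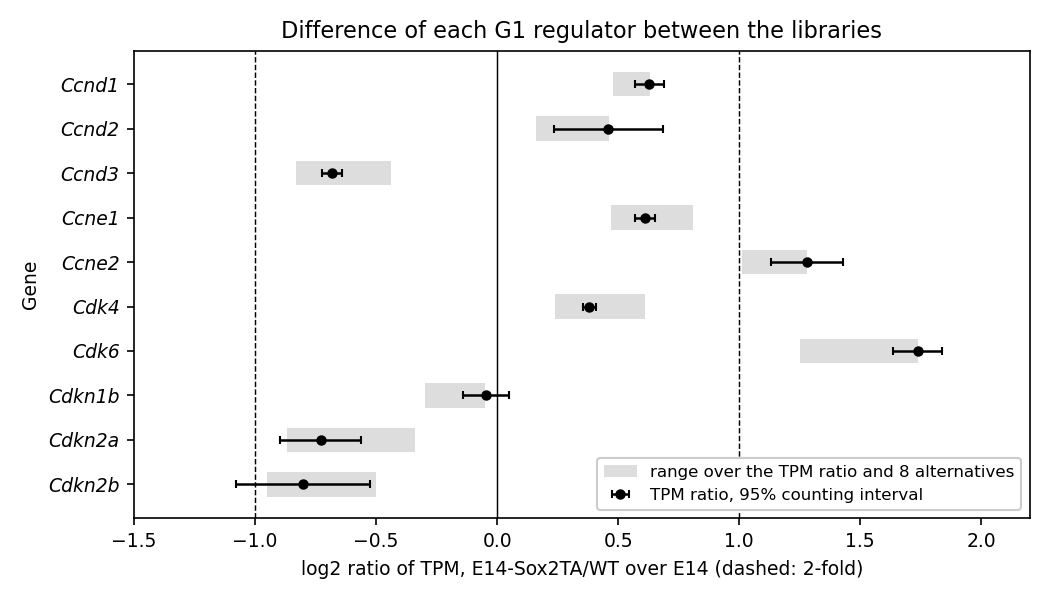
The log2 ratio of TPM (E14-Sox2TA/WT over E14) of each gene with its 95% counting interval (points and bars), beside the range of the ratio over 8 other scalings, pseudocounts and corrections (grey). Cdk6 (1.74) and Ccne2 (1.28) lie beyond the dashed 2-fold line, and Ccnd3, Cdkn2a and Cdkn2b lie between it and 0 on the lower side.

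The scaling sets the median of all genes, and the median log2 ratio over all genes past the filter was 0.08 with TPM and -0.06 with FPKM. The median of the 8 genes past the filter was 0.50 with TPM and 0.35 with FPKM, and it was 0.17 with the filter at TPM 20, which Cdk6 and Ccne2 do not pass. Every one of the 10 genes kept the direction of its difference under the 8 alternatives in the plot of ratios. Once the dependence of the ratio on GC content and on length was taken out, Cdkn2a moved to -0.34, Ccnd3 to -0.44 and Cdk6 to 1.25, while Cdk4 moved to 0.61 and Cdkn1b to -0.30. Ccne2 then stood at 1.01, at the 2-fold line, and Ccnd2 at 0.16.

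Ratios of 2 genes within a library do not depend on the scaling of the libraries to each other, but they do depend on GC content and length where the 2 genes differ in these. The Cdk6 to Cdk4 ratio of TPM was 2.56-fold higher in E14-Sox2TA/WT cells, a log2 change of 1.36 (1.25 to 1.46). The Ccnd3 to Ccnd1 ratio was 7.30 in E14 and 2.94 in E14-Sox2TA/WT cells, a log2 change of -1.31 (-1.39 to -1.24). The Ccne2 to Ccne1 ratio changed by 0.67 (0.52 to 0.82). Within the Ink4 locus the ratio of the 2 genes was not resolved from no change, with Cdkn2b at 0.258 and 0.246 of Cdkn2a (log2 change -0.07, -0.39 to 0.25). The Ccnd2 to Ccnd1 ratio (-0.17, -0.40 to 0.06) was likewise not resolved, and Cdkn1b was 0.872 and 1.40 times Cdkn2a (0.68, 0.49 to 0.87). With the dependence on GC content and length taken out, the log2 change was 0.04 for Cdkn1b/Cdkn2a, 0.20 for Ccne2/Ccne1, 0.64 for Cdk6/Cdk4, -1.06 for Ccnd3/Ccnd1, -0.45 for Ccnd2/Ccnd1 and -0.15 for Cdkn2b/Cdkn2a. Cdkn1b/Cdkn2a was thus near 0 under that correction, and only Cdkn2b/Cdkn2a stayed within its counting interval.

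**Figure D3:**
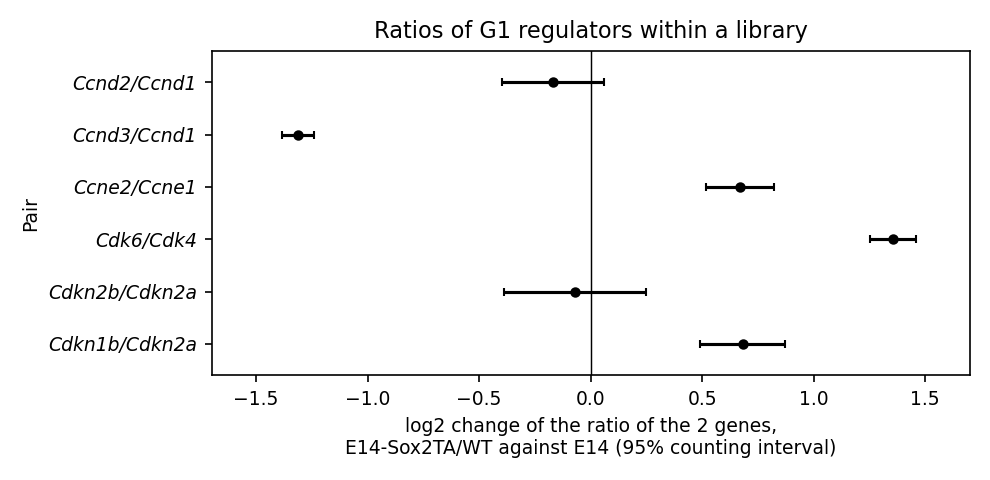
Change of the ratio of 2 genes within a library between E14 and E14-Sox2TA/WT cells, on the log2 scale, with 95% counting intervals by the delta method. Ccnd3/Ccnd1 is lower (-1.31), Cdk6/Cdk4, Ccne2/Ccne1 and Cdkn1b/Cdkn2a are higher, and the bars of Ccnd2/Ccnd1 and Cdkn2b/Cdkn2a cross 0. Without the dependence on GC content and length, which is not drawn, Cdkn1b/Cdkn2a is at 0.04 and Cdk6/Cdk4 at 0.64.

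The families summed in the same directions as their leading genes. The summed TPM of Cdk4 and Cdk6 was 573 in E14 and 752 in E14-Sox2TA/WT cells, a log2 ratio of 0.39 (0.37 to 0.42). That of Cdkn1b, Cdkn2a and Cdkn2b was 73.7 and 55.2, a log2 ratio of -0.42 (-0.50 to -0.33). The kinase sum was thus 7.77 times the sum of these 3 inhibitor genes in E14 and 13.6 times in E14-Sox2TA/WT cells. That inhibitor sum leaves out Cdkn1a, Cdkn1c, Cdkn2c and Cdkn2d, which together held a TPM of 177.2 in E14 and 137.2 in E14-Sox2TA/WT cells. It also counts the p19Arf transcript in the Cdkn2a row, and Cdkn1b, which acts mainly on cyclin E with Cdk2. The quotient therefore describes the named genes only. All these sums are levels of RNA, and neither protein nor kinase activity was measured in these libraries.

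**Figure D4:**
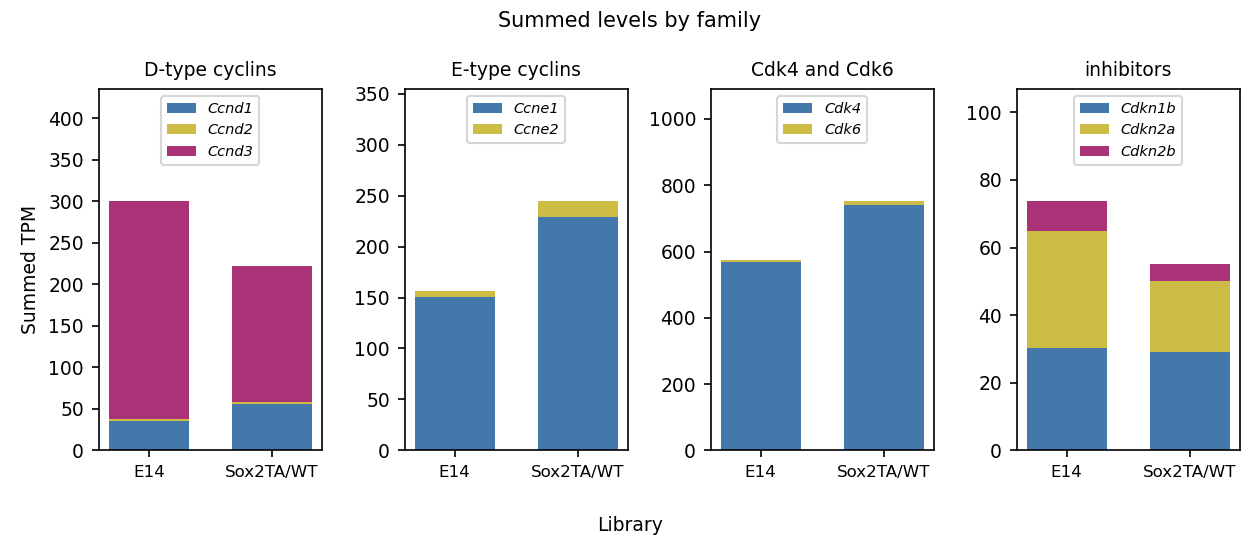
Summed TPM of the D-type cyclins, the E-type cyclins, Cdk4 with Cdk6, and the 3 inhibitors, stacked by gene, in the E14 and the E14-Sox2TA/WT library (axes start at 0 and differ between panels). The D-type sum goes from 300.1 to 221.5, with Ccnd3 the part that shrinks, and the E-type sum from 156.5 to 244.6, mostly in Ccne1.

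The other Cdk inhibitors were looked at next, and none of them differed by more than 2-fold, against 8.24% of all genes past the filter. With so few genes that absence carries no weight. Cdkn1a, which encodes p21 and is a main target of p53, had a TPM of 141.8 in E14 and 102.8 in E14-Sox2TA/WT cells (log2 ratio -0.46, -0.52 to -0.41). Cdkn2d, which encodes p19Ink4d, went from 20.1 to 14.2 (-0.50), and Cdkn2c, which encodes p18Ink4c, had 84 and 36 reads and was under the filter (-0.62, -1.22 to -0.04). Cdkn1c, an imprinted gene that encodes p57, went the other way, from 14.01 to 19.3 (0.47). Taking out the dependence on GC content and length moved Cdkn1a to -0.29, Cdkn2d to -0.20 and Cdkn1c to 0.74. The TPM of all 4 Ink4 genes was lower in E14-Sox2TA/WT cells, but 2 of them (Cdkn2b and Cdkn2c) were under the filter, and 3880 of the 9094 genes past it also had a ratio below 1.

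Downstream of the kinases stand the pocket proteins and the E2F factors. All 13 genes of this list passed the filter, 2 were more than 2-fold higher and none lower, against 4.17% and 4.07% of all genes. The median log2 ratio was 0.49 beside 0.08 for all genes, or 0.35 beside -0.06 with FPKM. The activators E2f2 (TPM 13.7 and 32.6, log2 ratio 1.25) and E2f3 (12.7 and 31.0, 1.29) were the genes past 2-fold. Ratios above 1 were not particular to these activators. E2f8 (0.96), E2f4 (0.62), Tfdp1 (0.60), E2f7 (0.53) and E2f6 (0.49) were higher too. In all, 10 of the 13 genes had a ratio above 1, against 57.3% of all genes past the filter. E2f1, also an activator, was level (43.9 and 42.8, log2 ratio -0.04), and so were the pocket protein genes Rb1 (0.04) and Rbl1 (0.06). Rbl2, which encodes p130, had the lowest ratio (-0.18, -0.29 to -0.06), or -0.41 with the GC and length trend removed. With this trend removed, Rb1 and Rbl1 moved to -0.25 and -0.26, and E2f1 to 0.15.

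Of 17 genes of DNA replication that E2F factors control, none passed 2-fold, against 4.17% of all genes past the filter higher and 4.07% lower. In a list this short the absence of such a gene carries no weight. The median log2 ratio of the list was 0.25 beside 0.08 for all genes. Pcna, the sliding clamp of the replication fork, had the highest ratio (TPM 345 and 535, log2 ratio 0.63), and Cdc45, part of the replicative helicase, had the lowest (83.2 and 62.4, -0.41). With FPKM the median of this list was 0.10 beside -0.06 for all genes. The same shares and limit apply to the 19 cyclins and kinases of the later cycle, of which none passed 2-fold with TPM. They had a median of 0.05, or -0.10 with FPKM. Their extremes were Cdk7, the kinase that activates other Cdks (18.0 and 24.2, 0.43), and Ccnf, which encodes cyclin F (214.5 and 115.8, -0.89). Ccnf reached -1.03 with FPKM.

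Turnover of G1 regulators runs through cullin ubiquitin ligases. Of the 13 genes listed, 12 passed the filter and none passed 2-fold. The share past 2-fold over all genes past the filter was 8.24%, so its absence in so few genes carries no weight. The median log2 ratio of the list was 0.37 beside 0.08 for all genes, or 0.22 beside -0.06 with FPKM. Cul1, the scaffold of the ligase that marks p27 and cyclin E for destruction, had the highest ratio (TPM 71.4 and 112, log2 ratio 0.65). Cks1b, the cofactor of Skp2 in the recognition of p27, had the lowest (368 and 345, -0.09), and its sign changed with the trend removed (0.05). Skp2 itself was at 51.6 and 53.2 (0.04, or -0.26 with the trend removed), and Fbxw7, which recognises cyclin E, at 20.1 and 27.0 (0.42, or 0.26).

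Among 16 factors known to act on the transcription of these genes, 14 passed the filter, 3 were more than 2-fold higher and none lower. Of all genes past the filter, 4.17% were more than 2-fold higher and 4.07% lower. The median log2 ratio of the list was 0.23 beside 0.08 for all genes, or 0.09 beside -0.06 with FPKM. Myc had a TPM of 27.1 (2047 reads) in E14 and 101.9 (5158 reads) in E14-Sox2TA/WT cells, a log2 ratio of 1.91 (1.84 to 1.99). Mycn, its relative, had 45.5 and 118 (1.38), and Hmga2, which encodes a chromatin protein, had 18.1 and 44.96 (1.31). These 3 genes also had log2 ratios above 1 under each of the 8 alternatives. Id1 had the lowest ratio (151.4 and 97.8, -0.63), which was -0.32 with the trend removed. The Polycomb genes of the list differed less, with Cbx7 at 140.3 and 198 (0.50), Rnf2 at 70.9 and 98.2 (0.47, or 0.21 with the trend removed), Ezh2 at 127 and 143 (0.17) and Bmi1 under the filter at 4.22 and 5.07. Ets1, also under the filter, had a TPM of 1.83 and 5.50 (1.58, 1.38 to 1.79). Whether any of these factors acts on the members in these cells was not tested.

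The partners of p19Arf were few. Trp53, the gene of p53, had a TPM of 279 in E14 and 474 in E14-Sox2TA/WT cells (log2 ratio 0.77, 0.74 to 0.80). Mdm2, which encodes the ligase of p53 that p19Arf binds, had 196 and 186 (-0.08), and Npm1, a nucleolar protein that also binds p19Arf, had 3993 and 4924 (0.30).

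**Figure D5:**
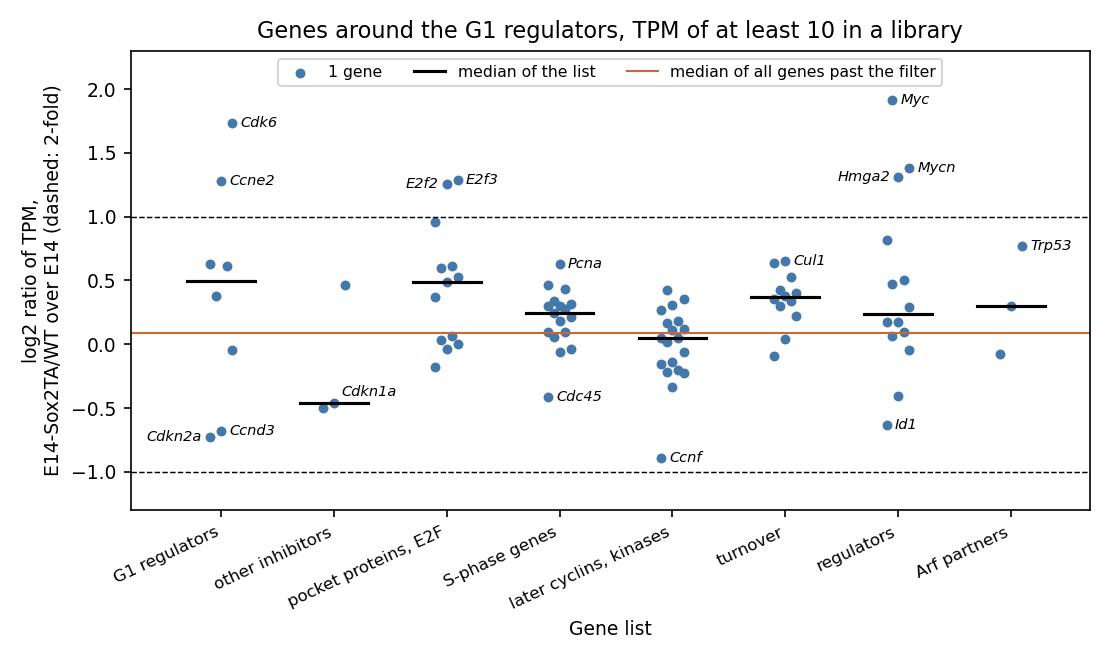
Each point is the log2 ratio of TPM (E14-Sox2TA/WT over E14) of 1 gene past the filter, by list, with the list median (black bar), the median of all genes past the filter (orange line, 0.08) and 2-fold (dashed). Only the G1 regulators, the E2F list and the list of transcription regulators hold points above the upper dashed line, and none lies below the lower one. Of all genes past the filter, 8.24% lie past 2-fold.

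Neighbouring genes were read beside the members to see whether a stretch of chromosome moved together. The nearest gene past the filter on one side of Ccnd1, at 29.0 kb on chromosome 7, was Fgf15, with a TPM of 5.50 and 13.3 (log2 ratio 1.27), and it shares the direction of Ccnd1. Beside Cdk6, Fam133b at 12.8 kb was higher (0.71) and Gm15772 at 104 kb was slightly lower (-0.17). Genes that overlap a member were not taken as neighbours, which left out Bysl at Ccnd3, Ints8 at Ccne2 and Tspan31 at Cdk4. Oraov1, which overlaps Ccnd1 and had 469 and 529 reads before scaling for depth, was not read as a neighbour either. Around Ccnd3, Taf8 at 2.73 kb (-0.12) and Med20 at 11.9 kb (-0.39) were lower, though less so than Ccnd3. Bysl lies between Ccnd3 and Med20 and had 6523 and 4937 reads before scaling for depth, in libraries of 60263536 and 44609228 reads. Ccnd3 had 16388 and 6830 reads in the same libraries, a larger fall than that of Bysl. Taf8 and Med20 therefore do not describe the whole stretch. Beyond the Ink4 locus, Mtap at 93.4 kb (0.28) and Elavl2 at 1917 kb (1.06) were higher, opposite to Cdkn2a and Cdkn2b. The cyclin E genes each had a neighbour with a higher level, Uri1 beside Ccne1 (0.47) and Dpy19l4 beside Ccne2 (0.43), while Plekhf1 (-0.42) and Trp53inp1 (0.08) lay on their other sides. The remaining neighbours were mixed, with March9 at 0.32 and A730063M14Rik at -0.53 around Cdk4, Tigar at 0.13 and Tspan9 at -0.49 around Ccnd2, and Gpr19 at -0.55 and Ddx47 at 0.02 around Cdkn1b. Fgf15 and March9 passed only through E14-Sox2TA/WT cells, and Plekhf1 and A730063M14Rik only through E14, in each case where they were higher. The directions of these genes, with that shared by Fgf15 and Ccnd1, therefore carry no weight beyond description. Among all genes past the filter, 57.3% had a ratio above 1.

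Some reads of these genes are uncertain. The end of Ccnd3 shares 359 bases with Bysl, Ccnd1 shares 818 bases with Oraov1 and Ccne2 shares 5622 bases with Ints8 (RefSeq, GRCm38.p6), and the handling of strand is not stated, so reads from the shared stretch cannot be told apart. Before scaling for the lower depth of the E14-Sox2TA/WT library, Bysl had 6523 and 4937 reads, Oraov1 469 and 529 and Ints8 5005 and 3876. Cdk6 shares 2556 bases with the lncRNA gene Gm36470 and 19218 with Gm29868, and Ccnd3 shares 7217 with Gm41590, and these 3 have no row in the table. The lncRNA gene Gm12610 spans Cdkn2b but had 4 reads in either library.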

How the data were processed

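The authors deposited 1 gene table for mm10 with the read count, FPKM and TPM of each gene in each library. The deposited counts are raw. Deposited FPKM is a level by transcript length and by all fragments of the library, and deposited TPM rescales it to the same total in both libraries. The submitters' processing notes name bcl2fastq 2.20.0, Trimmomatic, HISAT2 2.1.0 and StringTie 2.1.3b. Treatment of strand and of reads that map to several places is not given in the sources used here.

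The genes and lists were chosen with earlier results of these data known. Ratios of TPM (E14-Sox2TA/WT over E14) were taken without a pseudocount for genes whose TPM reached 10 in either library, with exact 95% Clopper-Pearson intervals of the counts placed on the TPM scale. The reads may include PCR copies of one molecule, and the intervals cover counting error only. With 1 library per genotype no test was made. Alternatives used TMM (edgeR 4.0.16), median-of-ratios size factors (DESeq2 1.42.0), CPM, FPKM, centring, pseudocounts, filters and thresholds. Taking out the dependence of the ratio on GC content and length (medians in 20 bins each, from GENCODE M21 transcripts, for 8856 of the 9094 genes past the filter and all 10 genes) and a filter on mean TPM were chosen after seeing the data. The rule for names took all 10 genes and Sox2, the extremes of each list, every listed gene past 2-fold, every gene of lists of 5 or fewer, and the nearest neighbours past the filter. Other genes of the lists and the markers were named after their values had been seen. Gene positions and promoter windows are from RefSeq for GRCm38.p6, the build of the table. Ratios and figures were computed in Python 3.11.15 (scipy 1.17.1), and the interval script was tested on simulated data.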

Additional observations from a re-analysis of the deposited data

How the results depend on the processing

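The number of genes more than 2-fold higher (2, Ccne2 and Cdk6) and lower (0) was the same under TMM, median-of-ratios scaling, CPM, FPKM, centring, both pseudocounts, removal of the GC and length trend, the filter at a TPM of 1, no filter, and the rule that the counting interval lie wholly past 2-fold. The higher count was 0 with the filter at TPM 20, where neither gene passes, 1 with a mean TPM of 10 or more, where Cdk6 does not pass, 4 at 1.5-fold and 1 at 3-fold, and the lower count was 2 at 1.5-fold. The median log2 ratio of the genes past the filter (0.50) was 0.45 with TMM, 0.41 with centring, 0.35 with FPKM, 0.35 with CPM, 0.61 with the trend removed, 0.42 with the filter at TPM 1, 0.17 with it at TPM 20, 0.41 without a filter and 0.38 with a mean TPM of 10 or more. The filters change which genes enter the median. Of 80 values of single genes under 8 alternatives, none changed sign and 50 lay within the counting interval of the TPM ratio. The log2 changes of the 6 pairs stayed within their counting intervals with read counts and with FPKM, and with the trend removed 5 of 6 did not. No paired analysis was possible because each genotype had 1 library, and no library could be left out. Depth limited Ccnd2 and Cdkn2b most. Variation between cultures was not measured.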
